A study of Homo sapiens with 12 samples.

Results

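Replication-dependent histone genes encode the linker histone H1 and the core histones H2A, H2B, H3 and H4. Their levels were compared here between proliferating and senescent cells of IMR90, which are primary human fetal lung fibroblasts. Members were chosen by name alone, as the gene symbols that begin with HIST1H, HIST2H, HIST3H or HIST4H and had at least 1 read in a coding sequence (CDS). This gave 71 of the 16451 symbols with CDS reads, out of 38716 symbols in the tables. Of 74 symbols with such names, 3 had no CDS reads (HIST2H2BA, HIST1H2APS1 and HIST2H2BC). The members comprised 6 H1, 17 H2A, 18 H2B, 15 H3 and 15 H4 genes, of which 55 belong to the HIST1 cluster, 12 to HIST2, 3 to HIST3 and 1 to HIST4.

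Cells of the senescent state (Sen) had been passaged until they no longer divided, and cells of the proliferating state (Pro) had not reached that point. Both were grown in MEM, with no treatment named other than passaging, and lysed with cycloheximide, which holds ribosomes in place. Each state had 3 independently grown replicates, and each lysate gave 1 Ribo-seq library, which reads the mRNA stretches shielded by ribosomes, and 1 RNA-seq library from poly(A)-enriched RNA, so that 12 libraries were compared in 4 groups of 3. The growth protocol names 2 isolates of IMR90 without tying them to samples, and the RNA-seq files of Pro cells carry a tag that resembles the solvent name DMSO, so neither isolate nor solvent can be told apart from state.

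Replication-dependent histones are made mainly in S phase, when newly copied DNA has to be packed into nucleosomes. Unlike other mRNAs of animal cells, their transcripts normally end without a poly(A) tail, just after a short stem-loop that binds the protein SLBP, and they are degraded when DNA synthesis stops. Some of the genes can also give longer, polyadenylated transcripts that read through the stem-loop. Poly(A) enrichment therefore selects for the tailed transcripts of these genes, whereas footprints came from ribosomes on any of their mRNAs. Untailed mRNA carried over through the enrichment would be counted as poly(A) RNA too, and its part in the levels below was not tested.

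The stem-loop letters of 7 members that recur below are shown from the GRCh37 genome, since they mark where the untailed transcript ends. Capitals mark the 16 bases of the stem-loop, with 5 bases of flank on each side, written 5′ to 3′ on the strand of the gene. At least 1 member of each class is given, together with 3 of the 4 members that had the most reads in the 3_UTR:
HIST1H1C: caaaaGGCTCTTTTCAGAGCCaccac
HIST1H2AC: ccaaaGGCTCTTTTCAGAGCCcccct
HIST1H2BK: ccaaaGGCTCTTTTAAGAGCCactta
HIST1H3B: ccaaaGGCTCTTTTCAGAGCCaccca
HIST1H4C: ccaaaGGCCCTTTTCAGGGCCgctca
HIST2H2BE: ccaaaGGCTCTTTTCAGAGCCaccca
HIST2H3PS2: ctaaaGGCTCTTTTCAGAGCCactgc

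These letters lie at chr6:26055967-26055992 on the minus strand for HIST1H1C, at chr6:26124892-26124917 on the plus strand for HIST1H2AC and at chr6:27114140-27114165 on the minus strand for HIST1H2BK. HIST1H3B has them at chr6:26031820-26031845 on the minus strand and HIST1H4C at chr6:26104540-26104565 on the plus strand. Those of HIST2H2BE lie at chr1:149857733-149857758 and those of HIST2H3PS2 at chr1:149400084-149400109, both on the minus strand. All 7 runs fall in the 3′ UTR side of a gene whose coding sequence is 1 exon, as in all 68 members that matched a coding gene of GENCODE. The pattern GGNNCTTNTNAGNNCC, searched on the strand of the gene in the 150 bases after the stop codon, was found in 68 of 68 matched members and in 2 of 19637 other coding genes (0.0102%), H2AX and TIPARP. The form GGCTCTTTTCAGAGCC was the most common, with 40 members. AATAAA, the usual signal for a poly(A) tail, was present within 1000 bases after the stop codon in 33 of the 68 members (48.5%) and in 62.3% of the other coding genes. A match is a description of the letters, and the authors' own genome build was not given in the sources used here.

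Levels are given as CPM, counts scaled to the size of the library with TMM factors, and errors as the SD of 3 libraries. RNA-seq libraries held 7902427 to 14144455 reads in 5_UTR, CDS and 3_UTR, the 3 regions whose sum is called poly(A) RNA here. Ribo-seq libraries held 583798 to 1718521 CDS reads, except Pro 1 with 54421 and Sen 2 with 54708, where a floor of 3 reads corresponded to 55.1 and 54.8 CPM on library totals. CDS reads were only 34.4% of the assigned reads of Pro 1 and 15.0% of those of Sen 2, against 54.7% to 88.8% in the other 4. Fibroblast markers were high in both states, with the 7 markers together at 29933 to 33909 CPM in Pro and 28642 to 33584 CPM in Sen, and COL1A1, the main collagen of these cells, at 14209 ± 1032 and 13269.8 ± 1509 CPM. Markers of other cell types were low as lists of 3, at 31.9 to 32.3 CPM in Pro and 19.2 to 23.7 CPM in Sen for epithelium, 0.589 to 0.651 and 0.822 to 1.01 CPM for endothelium, and 19.2 to 21.4 and 31.7 to 34.7 CPM for leukocytes. The defining markers EPCAM (at most 1.02 CPM), CDH5 (0 in each library) and PTPRC (at most 0.171 CPM) were at or near 0, so that nearly all of these sums came from KRT8, a keratin (30.3 to 31.6 CPM in Pro and 18.2 to 22.6 CPM in Sen, -0.57, adjusted p = 2.83e-05 with edgeR), and CD68, a lysosomal protein (18.9 to 21.02 CPM in Pro and 31.01 to 34.1 CPM in Sen, 0.70, adjusted p = 8.44e-07). Their part in the results was not tested. By contrast, the 4 S-phase genes summed to 396 to 442 CPM in Pro and 189 to 214 CPM in Sen. In bulk samples, fewer cycling cells and less RNA in each cycling cell cannot be told apart.

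Footprints on histone coding sequences were far fewer in senescent cells. Together the members took 0.922% of the CDS reads of Pro 1 (95% Wilson interval, 0.846 to 1.01), 0.867% of Pro 2 (0.845 to 0.889) and 0.857% of Pro 3 (0.844 to 0.871). In Sen 1, 2 and 3 they took 0.173% (0.167 to 0.18), 0.212% (0.177 to 0.254) and 0.139% (0.13 to 0.149). The summed level dropped from 8509 ± 50.3 CPM in Pro to 1799 ± 239 CPM in Sen, a ratio of -2.24 on the log2 scale, and was -2.32 without the lysates of both shallow libraries.

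All 5 classes took part in the drop, and in each class the 3 Sen libraries lay below the 3 Pro libraries. The H1 sum, for the histone that binds linker DNA between nucleosomes, was 2366, 2238 and 2223 CPM in Pro 1, 2 and 3 and 488, 597 and 486 CPM in Sen 1, 2 and 3, which left 23.01% of the Pro mean. The H4 sum went from 2122 ± 172 to 494 ± 91.5 CPM (23.3% left) and the H2A sum from 1542 ± 60.4 to 346 ± 42.6 CPM (22.4% left). Lower shares were left for H3, from 1853 ± 61.3 to 315 ± 76.5 CPM (17.0%), and for H2B, from 716 ± 88.6 to 120 ± 35.4 CPM (16.8%). The log2 ratios ran from -2.58 for H2B to -2.10 for H4, with spreads between replicates of 0.45 and 0.31, and the difference between classes was not tested.

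**Figure D1:**
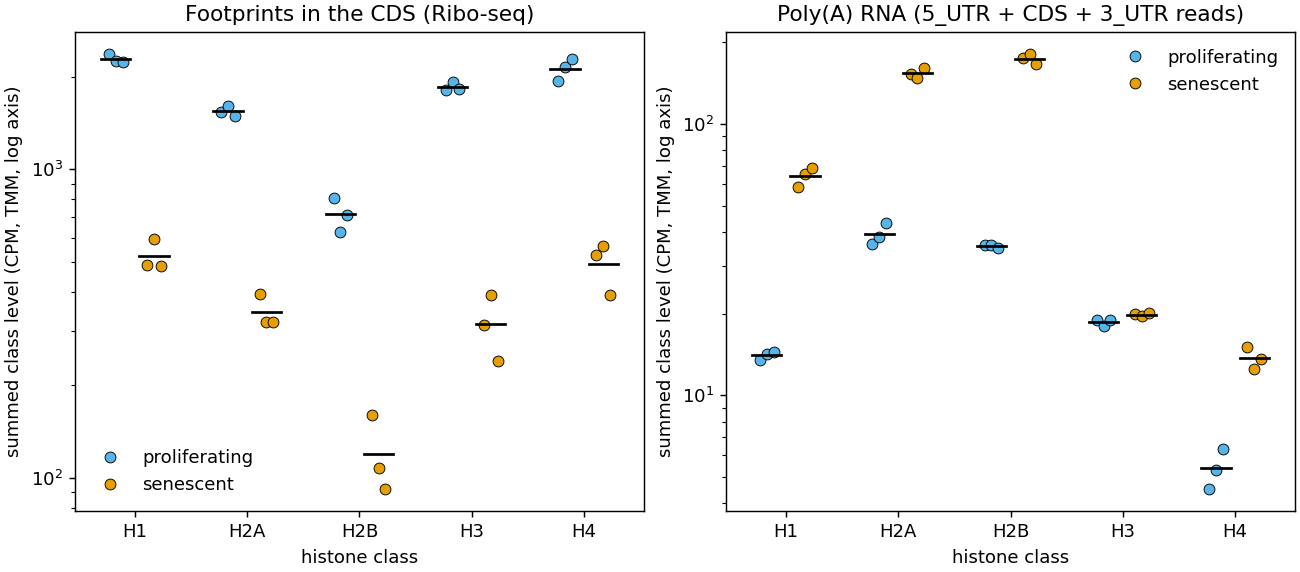
Summed level of each histone class per library, in CPM on log axes, for footprints in the CDS (left) and poly(A) RNA (right), with proliferating libraries in blue, senescent libraries in orange and black bars at the group means. In the left panel every senescent point lies below the proliferating points of its class, and in the right panel the senescent points of H1, H2A, H2B and H4 lie above them while those of H3 lie at 19.5 to 20.1 CPM against 18.0 to 18.9.

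Divided by coding length, the footprint level of Pro cells was highest for H4, at 6803 ± 552 CPM per kb, followed by H3 (4508 ± 149), H2A (3931 ± 154), H1 (3447 ± 120) and H2B (1879 ± 233). No neighbours in this order overlapped between their 3 Pro libraries. In Sen cells H4 again stood highest with 1585 ± 293 CPM per kb and H2B lowest with 315 ± 92.9, while H2A (881 ± 109), H1 (801 ± 97.1) and H3 (767 ± 186) did not differ beyond their spread. Members of H2B share the most sequence, as a median of 69.5% of their 30-base coding windows occurred in 1 member only, against 83.4% for H2A and 91.8% to 99.5% for H1, H3 and H4. How the authors treated reads with several placements was not given, and its part in the order of the classes was not tested.

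The test for each gene was edgeR's quasi-likelihood F-test, and a gene was called at a Benjamini-Hochberg adjusted p under 0.15. Of 71 members, 60 passed the filter on low counts in the footprint data and 60 were called lower in Sen, where 26.9% of the 7521 genes tested were called lower and none of the members was called higher, against 27.5% of all genes. A gene that was high in Pro cells passed the filter through that group alone, so the count over tested members is a description. With every gene of at least 1 read tested, 68 of 71 members were called lower and 0 higher, but the share of all genes called under that filter is not given here. DESeq2 called 56 of the 60 tested members lower and 0 higher. Shares of all genes called with DESeq2 are not given here, for the members or for the gene lists below. No member was higher at an unadjusted p under 0.05 either (0 with edgeR and 0 with DESeq2). Over all 71 members, the 3 Sen libraries lay below the 3 Pro libraries in 62 and above them in 0. Of the genes tested, which had passed the filter, 15.9% had such groups with Sen lower and 16.8% with Sen higher. The mean was higher in Sen for HIST1H2AA alone, which had 1.7 footprint reads in the 6 libraries together. Median fold change of the tested members was -2.40 on the log2 scale, against -0.003 for all tested genes.

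**Figure D2:**
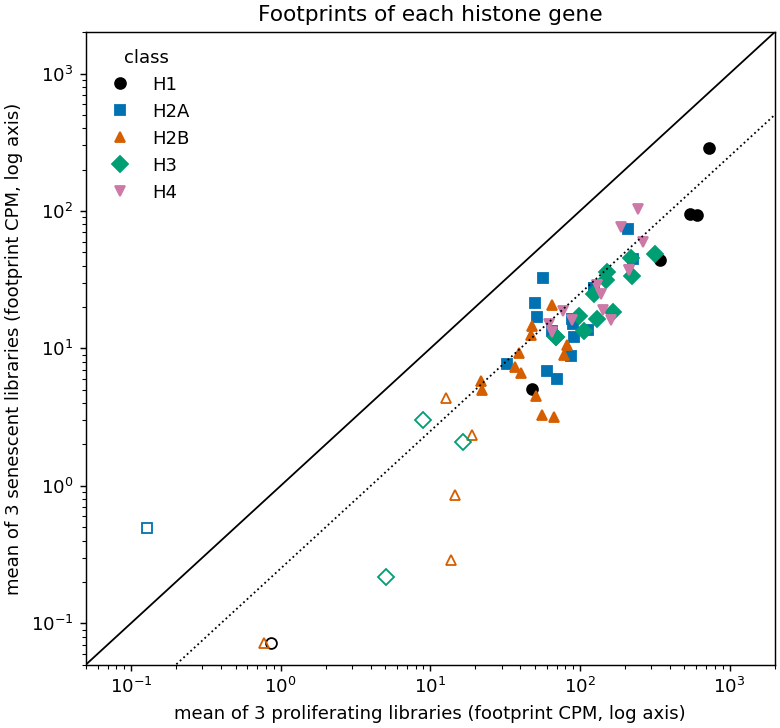
Mean footprint level of each histone gene in the 3 senescent libraries against the 3 proliferating libraries, in CPM on log axes, with filled symbols for the 60 tested members and open symbols for the others. The solid line marks equal levels and the dotted line a level 4 times lower in senescent cells, and all filled symbols lie under the solid line (HIST1H4G, with no senescent reads, is not drawn).

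Among the linker histones, HIST1H1C (H1.2) kept the most footprints. It was read at 755, 738 and 707 CPM in Pro 1, 2 and 3 and at 284, 330 and 245 CPM in Sen 1, 2 and 3, a log2 fold change of -1.42 ± 0.17 (SE, adjusted p = 3.86e-11). The groups were wide apart, yet the fall was smaller than those of the other somatic H1 genes. HIST1H1B (H1.5) went from 608 ± 16.3 to 94.0 ± 14.7 CPM (-2.84, adjusted p = 8e-23), HIST1H1D (H1.3) from 341 ± 35.6 to 43.8 ± 8.93 CPM (-3.16, adjusted p = 3.33e-23) and HIST1H1E (H1.4) from 545 ± 127 to 94.8 ± 13.8 CPM (-2.51, adjusted p = 1.02e-19). HIST1H1A (H1.1) was the lowest of the 5, with 16.8, 48.7 and 77.8 CPM in Pro and 6.93, 0 and 8.18 CPM in Sen (-3.18, adjusted p = 2.03e-11).

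The makeup of H1 footprints also differed between the states. HIST1H1C made up 31.9%, 33.0% and 31.8% of H1 footprints in Pro 1, 2 and 3, whereas its shares were 58.1%, 55.2% and 50.4% of those in Sen 1, 2 and 3. Wilson 95% intervals in the deep libraries were 30.7 to 35.3 and 30.4 to 33.3 in Pro 2 and 3 and 54.5 to 61.5 and 44.3 to 56.4 in Sen 1 and 3. They did not overlap between the states, while the interval of the shallow Sen 2 reached from 38.2 to 69.5. Shares of HIST1H1B moved the other way, from 25.5% to 28.0% in Pro libraries to 16.1% to 19.6% in Sen libraries. With HIST1H1C left out, the H1 sum fell by 2.70 on the log2 scale.

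H2A genes, whose product pairs with H2B, fell by between 1.07 and 2.86 on the log2 scale in the 16 tested members. HIST1H2AE went from 208, 242 and 224 CPM in Pro to 33.3, 59.7 and 41.2 CPM in Sen (-2.64, adjusted p = 1.6e-18). HIST1H2AC had 258, 183 and 193 CPM in Pro and 92.0, 56.9 and 73.9 CPM in Sen (-1.19 ± 0.18, adjusted p = 1.02e-07). Both genes had groups without overlap, and HIST1H2AC, like HIST2H2AC of the HIST2 cluster (49.9 ± 4.32 to 21.6 ± 4.33 CPM, -1.07, adjusted p = 0.00123), was among the 5 smallest falls called. The call for HIST2H2AC was lost with DESeq2 (adjusted p = 0.217), where its log2 fold change was -1.15. The H2A share of HIST1H2AC was 11.4% to 16.8% in Pro libraries and 17.7% to 23.3% in Sen libraries. Wilson 95% intervals of the deep libraries were 9.66 to 13.4 and 11.7 to 14.3 in Pro 2 and 3 and 20.2 to 26.9 and 17.3 to 29.8 in Sen 1 and 3, while those of the shallow Pro 1 (10.3 to 25.4) and Sen 2 (5.52 to 37.6) overlapped widely.

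Both the largest and the smallest fall of the called members were in H2B. HIST1H2BD had 92.6, 60.01 and 80.8 CPM in Pro and 7.15, 17.1 and 2.52 CPM in Sen (-3.58 ± 0.36, adjusted p = 1.52e-13), and -4.35 without Sen 1. HIST1H2BM fell to a similar extent, from 101, 43.4 and 57.7 CPM in the Pro libraries to 6.72, 0 and 2.83 CPM in the Sen libraries (-3.24, adjusted p = 1.23e-10). HIST1H2BK had 61.7, 37.7 and 43.2 CPM in Pro and 35.9, 5.69 and 1.89 CPM in Sen, so that its groups did not overlap only by the margin of Sen 1. Its fitted change of -0.76 ± 0.33 (adjusted p = 0.0554) was carried by that library, being -4.46 without Sen 1, -0.31 without Sen 3 (adjusted p = 0.494), -0.69 without Pro 3 (adjusted p = 0.22) and -0.67 without both shallow lysates (adjusted p = 0.16). Sen 1 also weighed on HIST2H2BE, which had 11.2, 54.2 and 56.7 CPM in Pro and 11.6, 5.69 and 2.52 CPM in Sen (-2.61, adjusted p = 7.91e-09, and -4.83 without Sen 1), with groups that overlapped through the shallow Pro 1.

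H3 genes fell within a narrower band, from -3.06 to -2.09 in the 12 tested members. HIST1H3B, the H3 gene with the most footprints, had 390, 275 and 286 CPM in Pro and 44.6, 71.1 and 30.8 CPM in Sen (-2.80 ± 0.20, adjusted p = 3.47e-20). HIST1H3D (218 ± 6.95 to 45.3 ± 24.9 CPM, -2.74), HIST1H3C (222 ± 25.1 to 33.5 ± 9.67 CPM, -2.62) and HIST1H3E (151 ± 3.86 to 35.8 ± 10.6 CPM, -2.09) were also called lower without overlap of the groups. HIST2H3PS2, a putative H3 gene, had at most 8.40 CPM in any Ribo-seq library and was not tested.

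H4 genes differed most among themselves in the size of the fall after H2B. HIST1H4C was steady in Pro, at 269, 261 and 263 CPM, and varied more in Sen, at 59.8, 76.8 and 41.5 CPM (-2.26 ± 0.19, adjusted p = 5.27e-17). HIST1H4D (161 ± 43.1 to 16.1 ± 11.3 CPM, -3.50) and HIST1H4L (88.8 ± 48.1 to 16.2 ± 10.6 CPM, -3.37) stood at the lower end. HIST1H4H, with 123, 221 and 225 CPM in Pro and 83.4, 82.4 and 62.3 CPM in Sen, was at the upper end (-1.49 ± 0.18, adjusted p = 1.98e-10). HIST1H4E (245 ± 116 to 104 ± 13.7 CPM, -1.63) had groups that overlapped, because the shallow Pro 1 gave 112 CPM against 298 and 325 CPM in Pro 2 and 3.

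Poly(A) RNA of the same genes went in the opposite direction. The members together had 109, 112 and 118 CPM in Pro 1, 2 and 3 and 422, 426 and 430 CPM in Sen 1, 2 and 3, a rise of 3.77-fold between groups that did not overlap. Even so they were a small part of the RNA-seq libraries, from 0.0113% to 0.0123% of reads in Pro and from 0.0403% to 0.0417% in Sen. H2B rose from 35.6 ± 0.551 to 174 ± 7.20 CPM, H1 from 14.05 ± 0.456 to 64.3 ± 5.07 CPM, H2A from 39.3 ± 3.64 to 154 ± 6.74 CPM and H4 from 5.38 ± 0.91 to 13.7 ± 1.33 CPM. H3 stayed at 18.6 ± 0.525 and 19.8 ± 0.28 CPM, a log2 ratio of 0.09 that turned to -0.02 on library totals without TMM factors.

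In the poly(A) data 23 members passed the filter, of which 22 were called higher, where 36.6% of the 12787 genes tested were called higher, and 1 was called lower, where 37% were. The 22 higher members had no overlap between the groups, against 33.5% of genes tested. A gene that was high in Sen cells could pass this filter through that group alone, so the count over tested members is a description. HIST1H2BG, for example, had 2.5 to 4.83 reads in the Pro libraries and 45 to 51 in the Sen libraries. With every gene of at least 1 read tested, 36 members were called higher and 3 lower, again without a share of all genes under that filter. Over all 71 members, 37 had the 3 Sen libraries above the 3 Pro libraries, against 33.5% of genes tested. In 2 they lay below (HIST2H3PS2 and HIST1H2AH), against 34.2%, while 5 members had no poly(A) reads at all. These shares cover genes that passed the filter, whereas the 71 members include genes with few reads. Reads were concentrated in few members, with 85.8% of all member reads in the 10 highest.

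HIST1H2BK, HIST1H1C, HIST1H2AC and HIST2H2BE alone made up 57.8% of the poly(A) reads of members. HIST1H2BK had 13.3, 15.0 and 13.1 CPM in Pro and 73.3, 84.5 and 68.3 CPM in Sen (2.45 ± 0.10, adjusted p = 6.37e-15). HIST1H1C had 13.2, 13.8 and 13.9 CPM in Pro and 57.8, 64.3 and 67.4 CPM in Sen (2.21 ± 0.09, adjusted p = 1.03e-14) and made up 96.1% to 98.6% of H1 poly(A) reads in each library. HIST1H2AC went from 16.2 ± 2.40 to 60.9 ± 2.98 CPM (1.90, adjusted p = 3e-13) and HIST2H2BE from 12.6 ± 1.09 to 54.1 ± 0.325 CPM (2.11, adjusted p = 2.36e-14). In all 4 the states were separated by many times the spread between replicates.

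The highest fold change was that of HIST1H2BG, at 0.305, 0.299 and 0.450 CPM in Pro and 5.16, 3.73 and 4.11 CPM in Sen (3.52 ± 0.31, adjusted p = 1.94e-09). HIST1H2BJ (0.446 ± 0.167 to 3.13 ± 0.823 CPM, 2.72), HIST1H4H (0.849 ± 0.175 to 5.24 ± 0.192 CPM, 2.57), HIST1H2BC (2.36 to 3.26 CPM in Pro libraries and 16.4 to 18.6 CPM in Sen libraries, 2.56) and HIST2H2AA3 with its copy HIST2H2AA4 (5.46 ± 0.591 to 30.2 ± 1.73 CPM, 2.45) followed. The smallest rises called were those of HIST3H2A (4.56 ± 0.75 to 6.42 ± 0.959 CPM, 0.53, adjusted p = 0.00938) and of HIST2H4A and HIST2H4B (0.915 to 2.06 CPM in Pro libraries and 2.36 to 3.31 CPM in Sen libraries, 0.79, adjusted p = 0.0108). By contrast, genes with abundant footprints such as HIST1H3B (at most 0.186 CPM), HIST1H1D (at most 0.0913 CPM) and HIST1H4C (at most 0.425 CPM) hardly appeared in poly(A) RNA.

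**Figure D3:**
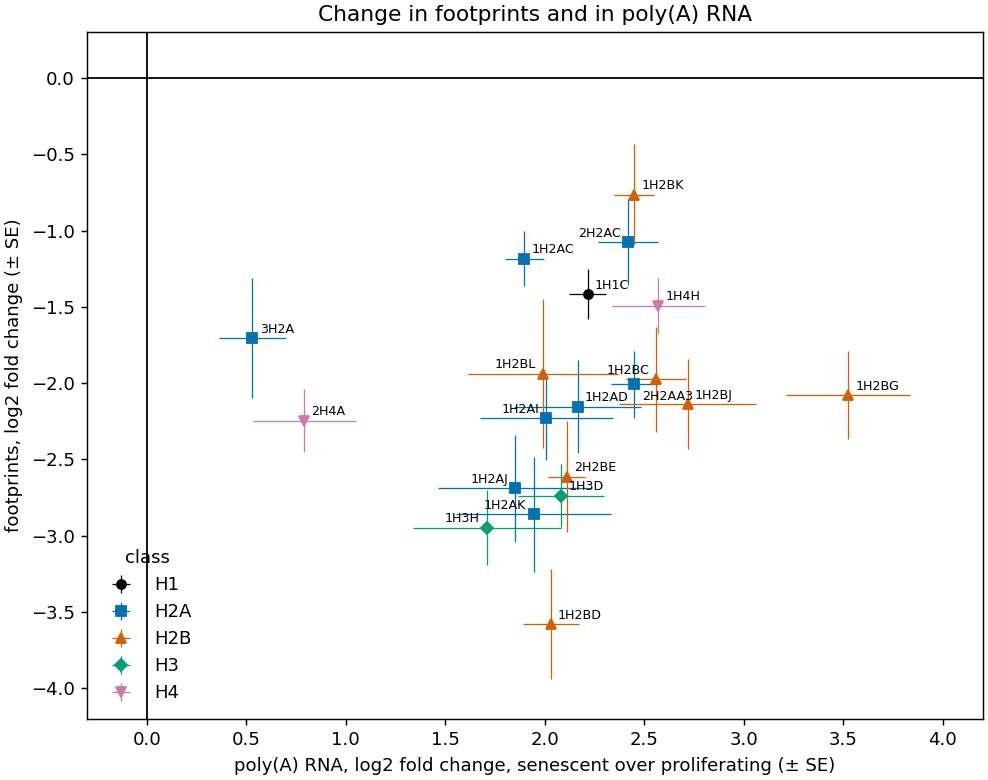
Log2 fold change of footprints (y axis) against that of poly(A) RNA (x axis), senescent over proliferating, for the members tested in both layers, with bars for the SE and names given without the prefix HIST (copies with identical values drawn once). All of them lie to the right of 0 on the x axis, from 0.53 to 3.52, and below 0 on the y axis.

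HIST2H3PS2 was the exception in poly(A) RNA, at 15.93, 14.99 and 15.95 CPM in Pro and 9.30, 10.4 and 10.6 CPM in Sen (-0.62 ± 0.11, adjusted p = 5.79e-05). It made up 83.1% to 84.2% of the H3 poly(A) reads in Pro libraries and 46.7% to 53.1% in Sen libraries, and without it the H3 sum rose by 1.69 on the log2 scale. HIST1H3D, the next H3 gene, rose from 1.27 ± 0.191 to 5.31 ± 0.458 CPM (2.08, adjusted p = 2.51e-08). Of the reads of HIST2H3PS2, 97.7% lay in the 3_UTR, and GENCODE places 2 other genes across its locus, so reads of these genes cannot be told apart from its own. The same limit holds for members called higher, such as HIST1H2BD and HIST1H2BC (4 overlapping genes each) and HIST1H2AC (1). HIST1H2BK, HIST1H1C and HIST2H2BE had 0. On CDS reads of RNA-seq alone, 22 members were called higher and 0 lower, and the share of all genes called on these reads is not given here.

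Reads in the 3_UTR bear on tailed transcripts, as the untailed mRNA ends just after the stem-loop, which began 23 to 68 bases after the stop codon in the matched members. Untailed mRNAs also hold the bases up to the stem-loop, and counts per region do not separate reads before it from reads past it. For a member such as HIST1H4H, with an annotated 3′ UTR of 62 bases, 3_UTR reads could come from either form. Reads in the 3_UTR came from 23 of the 66 members with poly(A) reads, and 97.1% of them belonged to HIST2H2BE, HIST1H2BK, HIST2H3PS2 and HIST1H2BD. Summed 3_UTR levels of all members rose 2.77-fold, on the scale of 3_UTR reads, against 3.77-fold for poly(A) RNA. The H2B sum rose 4.45-fold, and the H3 sum fell to 61.7% of its Pro mean. The 3_UTR share of member poly(A) reads was 29.1% to 33.1% in Pro libraries and 22.6% to 26.7% in Sen libraries. Over all symbols this share was higher in Sen, at 26.8% to 28.9% against 24.7% to 25.1% in Pro. The cause of this difference was not tested. In the 3_UTR data 5 members passed the filter, of which 4 were called higher, where 27.6% of 9731 genes were, and 1 lower, where 28.4% were. These 5 had no overlap between the groups, against 26% of genes tested for higher and 26.5% for lower levels. Here too a gene could pass the filter through 1 state alone, so these counts are a description.

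HIST2H2BE, whose longest annotated 3′ UTR has 1801 bases, had 100, 117 and 112 reads in the 3_UTR of the Pro libraries and 439, 660 and 497 of the Sen libraries (2.03 ± 0.11, adjusted p = 3.19e-09). From 83.5% to 88.8% of its poly(A) reads lay there in each library, and the shares of both states overlapped. For HIST1H2BK the 3_UTR counts were 59, 94 and 74 in the Pro libraries and 360, 643 and 381 in the Sen libraries (2.35 ± 0.13, adjusted p = 3.28e-09), and the share was 52.6% to 54.2% in Pro and 50.9% to 55.7% in Sen. HIST1H2BD rose by 1.81 (adjusted p = 5.01e-05) and HIST1H2AC by 1.73 (adjusted p = 0.0117, and by 2.71 without Pro 2), with 3_UTR shares of 30.5% and 2.54% over the 6 libraries. HIST2H3PS2 fell by 0.70 (adjusted p = 0.000389), from 59.0, 58.2 and 62.5 CPM to 34.4, 35.8 and 40.0 CPM on the scale of 3_UTR reads.

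Other members had poly(A) reads with few or none in the 3_UTR. HIST1H1C had 0 of 2578, although 18 to 150 of its reads per library lay in the 5_UTR, and HIST2H2AA3 had 0.545%. The annotation behind the regions limits this measure, because GENCODE gives HIST1H2BK a 3′ UTR of only 57 bases while the deposited tables assign it most of its poly(A) reads there. Absence of 3_UTR reads therefore does not show that a transcript lacked a tail.

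**Figure D4:**
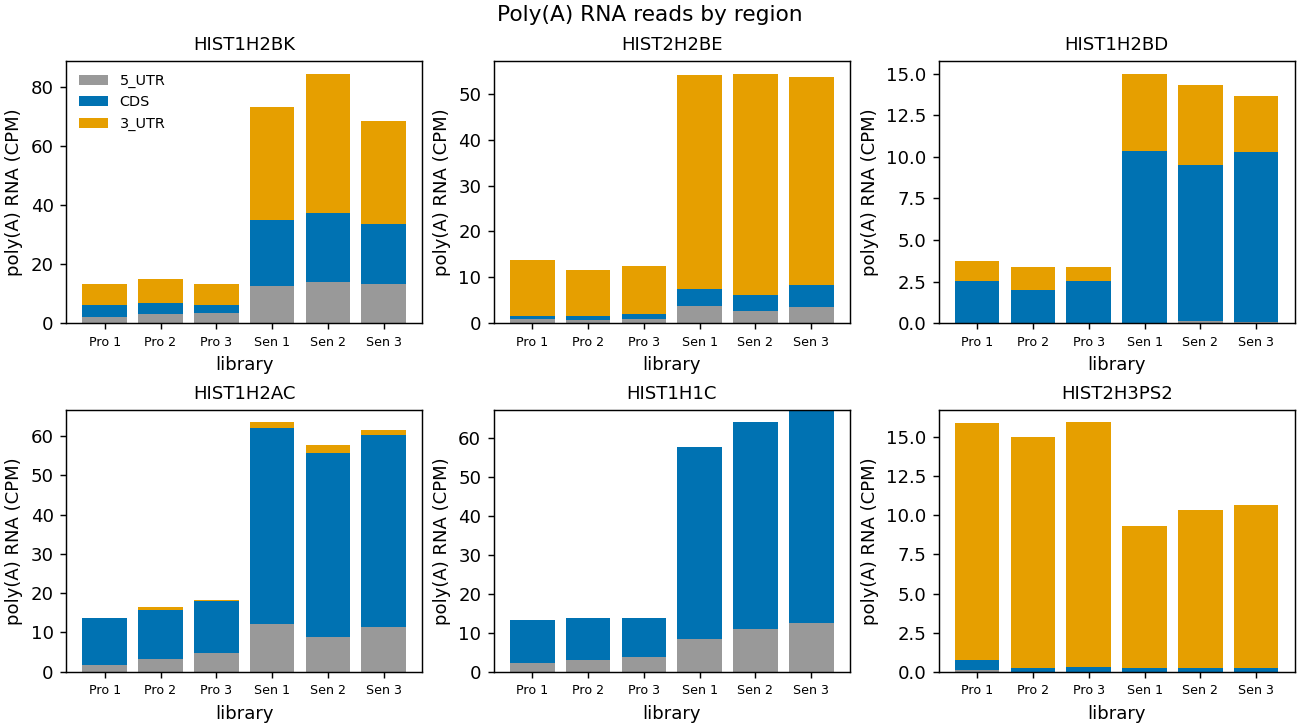
Poly(A) RNA level of 6 members in each RNA-seq library, in CPM, as bars stacked by region with 5_UTR in grey, CDS in blue and 3_UTR in orange. Bars of the senescent libraries are taller in every member except HIST2H3PS2, whose bars consist almost wholly of 3_UTR reads and are shorter.

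Since footprints and poly(A) RNA came from the same lysates, their ratio was taken lysate by lysate. For all members together it was 77.5, 76.5 and 72.3 for lysates Pro 1, 2 and 3, but 4.47, 4.65 and 3.56 for lysates Sen 1, 2 and 3, in units of CPM over CPM. H4 had the highest ratio, with a mean of 399 in Pro and 36.3 in Sen, and H2B the lowest, with 20.1 and 0.687. In every class the Sen lysates lay below the Pro lysates. This ratio is not the translation of the whole histone mRNA pool, because poly(A) enrichment selects for tailed mRNAs while ribosomes also read untailed ones.

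In the test of this ratio, fitted with lysate as a block, 22 members passed the filter in both layers and 22 were called lower, where 4.48% of 7473 genes were called lower, and the Sen lysates lay below the Pro lysates in 22, against 8.58% of genes. Members could pass the footprint filter through Pro alone and the poly(A) filter through Sen alone. Such a choice favours a lower ratio in Sen, so these counts are a description. With every gene of at least 1 read tested, 50 of 65 members were called lower and 0 higher. With DESeq2, 19 of the 22 were called lower. Shares of all genes called are not given here for that filter or for DESeq2. Median log2 change in the main fit was -4.43 for the 22 members and -0.014 for all genes. HIST1H2BD had ratios of 24.8, 17.7 and 24.0 in the Pro lysates and 0.476, 1.19 and 0.184 in the Sen lysates (-5.70 ± 0.40, adjusted p = 1.02e-19, and -6.39 without lysate Sen 1). HIST1H1C had 57.1, 53.6 and 51.0 in the Pro lysates and 4.91, 5.13 and 3.63 in the Sen lysates (-3.60 ± 0.18, adjusted p = 3.26e-28). HIST3H2A, at the upper end, had 8.12, 7.40 and 5.77 in the Pro lysates and 1.71, 0.825 and 1.20 in the Sen lysates (-2.16 ± 0.45, adjusted p = 0.00119), a call that DESeq2 did not make (-2.42, adjusted p = 0.9998).

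Footprint falls were also set against the level of poly(A) RNA, and the result depended on Sen 1. Among the 60 members tested in footprints, the 7 with a mean poly(A) level of at least 10 CPM had a median footprint change of -1.98 (range, -2.61 to -0.76), the 12 with 1 to 10 CPM one of -2.19 and the 41 with under 1 CPM one of -2.55. Spearman's rho between the mean poly(A) level and the log2 fold change of footprints was 0.50 over the 60 genes and 0.47 with each pair of identical copies counted once (n = 56). Genes of a sample are not independent and share libraries and sequence, so this is given as a description. Without Sen 1, in an alternative chosen after seeing the data, the medians were -2.50, -2.49 and -2.65 in the same order and rho was 0.24, whereas leaving out any other single library gave rho of 0.43 to 0.53. HIST1H2BK, HIST2H2AC, HIST1H2AC, HIST1H1C and HIST1H4H, the 5 smallest footprint falls called, were each called higher in poly(A) RNA, but HIST1H2BK would not be among them without Sen 1 (-4.46). HIST1H2BD did not follow the pattern, as its poly(A) RNA rose from 3.50 ± 0.21 to 14.3 ± 0.663 CPM (2.03) while it had the largest footprint fall. Nor did HIST2H2BE, with 12.6 ± 1.09 and 54.1 ± 0.325 CPM in poly(A) RNA and a footprint change of -2.61 (-4.83 without Sen 1).

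**Figure D5:**
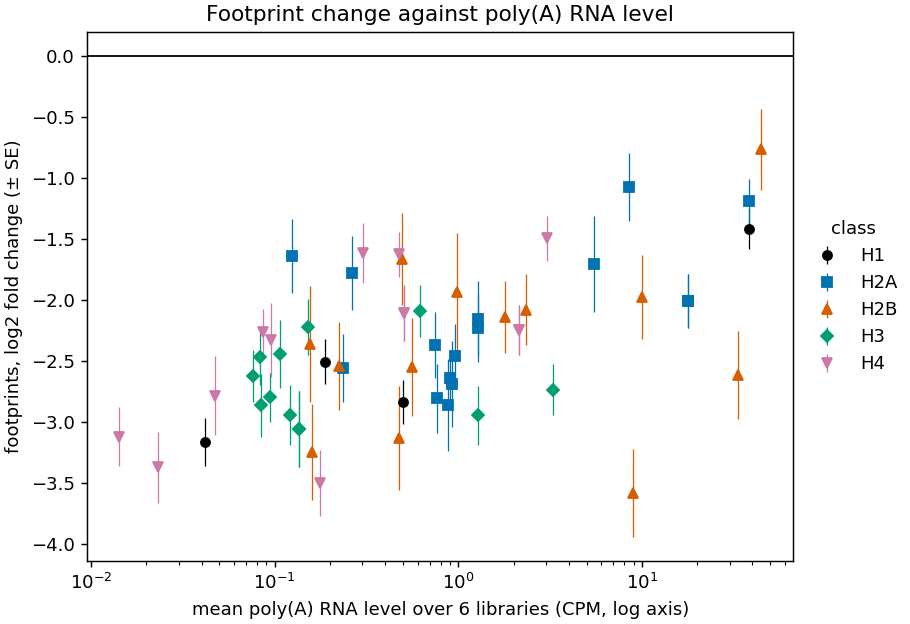
Log2 fold change of footprints (y axis, with SE bars) against the mean poly(A) RNA level of the 6 RNA-seq libraries (x axis, CPM on a log axis) for 58 members tested in footprints, coloured by class. Points of low poly(A) level lie mostly between -3.5 and -1.5, and HIST1H2BK, HIST1H1C and HIST1H2AC at the right lie at -0.76 (-4.46 without Sen 1), -1.42 and -1.19. HIST2H2BE, also at the right, lies at -2.61, and HIST2H2AA3 with its copy HIST2H2AA4 at -2.01 (2 members without poly(A) reads are not drawn).

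Several members cannot be separated from close copies. HIST1H4J and HIST1H4K, HIST2H2AA3 and HIST2H2AA4, HIST2H3A and HIST2H3C, and HIST2H4A and HIST2H4B had identical values in all libraries, so each pair carries 1 measurement, and 56 distinct values stood behind the 60 footprint calls. In the Ribo-seq files 81.9% of the nonzero CDS values of members were not whole numbers, against 18% over all symbols, and in RNA-seq these shares were 67.3% and 13.1%. Fractions of a read occur where reads with several placements are divided, and the levels of single members are uncertain to that extent.

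Genes that make, process or degrade histone mRNA were lower or not called for the most part. Of 28 such genes measured in poly(A) RNA, 18 were called lower and 3 higher, against 37% and 36.6% of all genes tested. Of 20 tested in footprints, 10 were called lower, against 26.9% of all genes, and 0 higher (0 also at an unadjusted p under 0.05 with edgeR and with DESeq2). The 10 became 3 with DESeq2 and 6 with the replicate number as a block. SLBP, which binds the stem-loop, had 66.0, 58.8 and 66.7 CPM in Pro and 60.9, 70.6 and 59.7 CPM in Sen and was not called in poly(A) RNA (0.004 ± 0.083, adjusted p = 0.971) or in footprints (-0.13, adjusted p = 0.69). NPAT (14.3 ± 0.917 to 9.36 ± 0.984 CPM, -0.63, adjusted p = 0.000124) and CASP8AP2 (16.4 ± 0.389 to 10.1 ± 0.568 CPM, -0.71, adjusted p = 1.06e-05), both needed for transcription of histone genes, were called lower in poly(A) RNA and in footprints (-1.21 and -1.40), where DESeq2 called neither (adjusted p = 0.55 and 0.208) and NPAT was not called with the replicate block (adjusted p = 0.317).

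Histone chaperones, which carry new histones to DNA, were mostly lower in poly(A) RNA, with 19 of 21 called lower (37% of all genes) and 2 higher (36.6%). In footprints 12 of 17 were called lower (26.9% of all genes), or 6 with DESeq2, and 0 higher (0 also at an unadjusted p under 0.05 with edgeR and with DESeq2). NASP, a chaperone of H1 and H3-H4, had 104, 95.7 and 95.8 CPM in Pro and 32.3, 34.6 and 31.6 CPM in Sen (-1.58, adjusted p = 1.46e-13) and fell in footprints too (-1.74, adjusted p = 6.38e-11). CHAF1B and CHAF1A, of the complex that deposits H3-H4 behind the replication fork, fell by 1.33 (adjusted p = 1.36e-08) and 0.61 (adjusted p = 0.000141) in poly(A) RNA, ASF1B by 0.89 (adjusted p = 1.03e-06), and HIRA, which deposits H3.3 outside S phase, by 0.61 (adjusted p = 6.93e-07). In footprints CHAF1A was not called (-0.26, adjusted p = 0.624), and ASF1B and HIRA were not tested. CHAF1B was called lower there (-0.85, adjusted p = 0.0756), but not with DESeq2, with the replicate block, without Pro 3 or without Sen 1.

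Replication-independent histones, whose mRNAs are as a rule polyadenylated, served as a comparison within the family. H2AFX on this list carries the stem-loop letters, so the comparison is not free of stem-loop genes. In poly(A) RNA 10 of 12 were called lower and 1 higher, against 37% and 36.6% of all genes. In footprints 7 of 11 were called lower and 1 higher, against 26.9% and 27.5%, and with DESeq2 3 were called lower and 0 higher. H2AFX, the H2A.X gene that carries the stem-loop letters under its newer name H2AX, went from 116 ± 6.41 to 64.0 ± 8.45 CPM in poly(A) RNA (-0.87, adjusted p = 1.26e-08) and fell by 1.38 in footprints (adjusted p = 1.67e-06). H2AFJ was the gene called higher in both layers, with 27.6, 31.7 and 30.5 CPM in Pro and 62.0, 59.4 and 62.1 CPM in Sen (1.02, adjusted p = 3.92e-10) and a footprint change of 0.74 (adjusted p = 0.0335). Its footprint call was lost with DESeq2 (adjusted p = 0.489), with the replicate block (0.186), without Pro 3 (0.456) and without Sen 1 (0.336). In the ratio of footprints to poly(A) RNA 1 of 11 was called lower, against 4.48% of all genes (H3F3A, -0.68, adjusted p = 0.0273), and DESeq2 did not make this call, which was also lost without Pro 2, Pro 3, Sen 1 or Sen 3.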

How the data were processed

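The values analysed were expected counts deposited by the authors per gene symbol and region (5_UTR, CDS, 3_UTR and non-coding classes), not scaled to depth. All were multiples of 1/6 of a read. The submitters' processing notes name cutadapt 1.18, Bowtie 1.0.1, SAMtools 1.8 and DESeq2 1.22.2, and the genome build, annotation and rule for reads with several placements were not given in the sources used here. Footprints were CDS reads of Ribo-seq, and poly(A) RNA the sum of 5_UTR, CDS and 3_UTR reads of RNA-seq. Sums were rounded to whole numbers, where plain counts had been planned for. Groups and replicate numbers came from the sample labels.

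Genes passing filterByExpr went into edgeR's two-sided quasi-likelihood F-test (edgeR 4.0.16, R 4.3.3, TMM factors, Benjamini-Hochberg adjustment over all genes tested, threshold 0.15). The ratio was tested in 1 model of 12 libraries as the interaction of library type with state, with the lysate as a block, since the protocol took both RNAs from 1 lysate. Deviations of the 2 libraries of a lysate from their group means correlated at -0.040 to 0.054. Class sums had no test. Intervals (Wilson, 95%) and floors (3 reads) cover counting error only. Sequences and gene positions came from GRCh37 with GENCODE v44lift37, where 68 of 71 older symbols were matched through RefSeq synonyms. Lengths of the other 3 were set to the class median.

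Genes named were, per class, the 4 members with most footprints, 3 with most poly(A) reads and 2 with most 3_UTR reads, plus the 5 lowest and 5 highest fold changes called in each layer, and not every gene picked is named. Members, lists and naming rule were chosen with earlier results of these data known. Scripts were tested on simulated data. Alternatives were RLE factors, library totals, 2 other filters, DESeq2 1.42.0, leaving out libraries, a replicate block, CDS reads of RNA-seq, and class sums without their leading member.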

Additional observations from a re-analysis of the deposited data

Results flagged for a closer look

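HIST2H2BC, a histone symbol without CDS reads and so outside every comparison, had reads in the pseudogene class of the RNA-seq files that were more frequent in senescent than in proliferating libraries. Their level was 1.03, 1.66 and 1.66 CPM on library totals in Pro 1, 2 and 3 and 3.01, 2.77 and 3.63 CPM in Sen 1, 2 and 3, with means of 1.45 ± 0.36 and 3.14 ± 0.44. The libraries of the states did not overlap, and the difference was not tested. Footprints assigned to HIST2H2BC went the other way in the deep libraries, at 13.1 and 14.4 CPM in Pro 2 and 3 and 5.88 and 1.43 CPM in Sen 1 and 3.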

How the results depend on the processing

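Directions of the counts and sums given above held under the alternatives run, apart from those named here, and limits come mainly from the shallow libraries Pro 1 and Sen 2, where a single member is often under 3 reads, and from Sen 1, which sets the size of several H2B changes. With the replicate number as a block, 60 footprint members were called lower, 22 poly(A) members higher and 1 lower, and 4 members higher and 1 lower in the 3_UTR, and the ratio fitted without its lysate block (which pairs the Ribo-seq and RNA-seq libraries of 1 replicate) again gave 22 lower. The block gave 6 in place of 10 machinery genes lower in footprints and 0 in place of 1 replication-independent histone higher. Whether replicate numbers shared across states pair the samples could not be told. Deviations from the group means correlated at 0.017 to 0.019 in footprints and -0.085 to 0.107 in poly(A) RNA for equal numbers. For unequal numbers they correlated at -0.023 to -0.002 and -0.149 to 0.128. The 2 libraries of 1 lysate gave only -0.040 to 0.054, so small values do not exclude pairing. Testing genes of at least 1 read gave 3 poly(A) members lower, 36 higher, 8 higher in the 3_UTR and 50 lower in the ratio, and a mean of at least 10 counts gave 2 lower in poly(A) RNA (HIST2H3PS2 and HIST1H2AB). Shares of all genes called are given only for the main edgeR fits, not for any of the alternatives. CDS reads of RNA-seq gave 0 lower. Leaving out 1 library at a time gave 1 to 3 poly(A) members lower and 0 to 1 replication-independent histones higher in footprints. DESeq2 gave 56 in place of 60 members lower in footprints and 19 in place of 22 in the ratio. It also gave 3 machinery genes, 6 chaperones and 3 replication-independent histones lower in footprints and 0 of the latter higher. Library totals gave 1 chaperone higher in poly(A) RNA, where they moved the median of all genes to -0.11 (-0.14 in footprints and -0.20 in the 3_UTR). They put the poly(A) sums at log2 ratios of 2.19 for H2B, -0.02 for H3, which reversed, and 1.81 for all members, and the 3_UTR sums at 1.98 for H2B, -0.87 for H3 and 1.30 for all members. Without the leading member of each class, footprint sums were -2.70 for H1 and -2.45 for all members, poly(A) sums 1.36 for H1, 2.18 for H2B, 1.69 for H3, 0.90 for H4 and 2.0 for all members, and 3_UTR sums 2.30 for H2B, 0.66 for H3, which reversed, and 2.28 for all members. The H3 members left in that 3_UTR sum had at most 1.5 reads each over the 6 libraries. Causes of the moves above were not tested. Counting identical pairs once, an alternative chosen after seeing the data, gave 56 footprint members lower, 20 poly(A) members higher and 20 lower in the ratio. Of 1037 alternative values for single named members, 7 lost their call and 0 reversed.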
